A study of Mus musculus with 8 samples.

Results

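The genes of the CD3 complex, the pre-T-cell receptor and the first steps of T-cell receptor signalling were examined in mouse pro-B cell lines that lack EBF1, a transcription factor needed for B-lineage commitment. The set holds 10 genes: Cd3g, Cd3d, Cd3e, Cd247, Ptcra, Lck, Zap70, Lat, Cd5 and Thy1. They were taken as all probes outside the controls whose transcript maps to these symbols, which gave 11 of the 39429 probes on the array and 10 of the 20125 genes that could be named. Zap70 had 2 probes and each of the other genes 1. All 4 groups share the Ebf1 deficiency and derive from fetal liver progenitors grown with SCF, Flt3L and IL-7 on stromal cells. The pro-B(+) line was kept on OP9 stromal cells and has T-lineage potential, and the pro-B(−) line was kept on TD7, a thymic stromal line, and has none. Pro-B(−) cells were also measured after transduction with an empty lentiviral vector, pro-B(−)/Mock, or with the same vector carrying Lmo2, pro-B(−)/LMO2. Each group is 1 cell line with 2 arrays, and the transductants were kept on stromal cells after infection, with the stromal line used before RNA isolation not given in the sources used here.

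In a mature T cell the antigen-binding chains reach the surface together with CD3γ, CD3δ, CD3ε and the ζ chain, whose cytoplasmic tails carry the tyrosine motifs that pass on the signal. In an immature thymocyte the pre-TCRα chain stands in for the α chain. The kinase LCK phosphorylates these motifs, ZAP70 docks on them and phosphorylates the adaptor LAT, and LAT gathers the enzymes that carry the signal further, while CD5 dampens it. Thy1 is a surface glycoprotein that marks T cells in the mouse but is also made by early lymphoid precursors, stem cells and fibroblasts. Several of these genes, including Cd247, Lck and Zap70, are also used by natural killer cells.

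Signals are on the log2 scale relative to the array's 75th percentile of intensity, so that 0 is the upper quartile of an array. They can be compared between arrays for a probe, but not between genes, since probes differ in brightness. On the 8 arrays 56.5% to 61.2% of the probes gave a signal well above background, and replicate arrays correlated at r = 0.9988 to 0.9991. Lmo2 had mean signals of 2.10 in pro-B(+), 0.63 in pro-B(−), 0.35 in pro-B(−)/Mock and 0.96 in pro-B(−)/LMO2 cells. Whether its probe reads the Lmo2 transcript of the vector was not examined. The Ebf1 probe was well above background on every array, with means of 1.33, 1.52, 1.49 and 1.13 in the same order, and because where it lies with respect to the deletion was not examined, it does not check the deficiency. Both arrays of pro-B(+) and pro-B(−) lay on slide 1 and those of pro-B(−)/Mock and pro-B(−)/LMO2 on slide 2, so the comparison of the parental lines and that of the vectors are each within a slide. Titles of the transductants do not say whether the arrays were separate cultures, so their p-values may measure technical spread only. Of 10 B-lineage markers, 5 to 8 were well above background on each array, and Ms4a1 and Blk on none. The constant chains of the T-cell receptor had no named probe among the 8 that were listed.

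The first comparison set the pro-B(+) line, which can enter the T lineage, against the pro-B(−) line, which cannot. Cd3g, Cd3d, Cd247, Lat and Cd5 were higher and Thy1, Zap70 and Lck lower in pro-B(+) cells, so that 8 of the 10 genes were called by limma at an adjusted p under 0.05, 5 higher and 3 lower. With median scaling, Lat and Cd5 were not called and Cd3e was called lower, which gave 3 higher and 4 lower. In bulk RNA fewer cells that use a gene and less RNA of it per cell cannot be told apart. Calls were common in this comparison: of 13218 named genes tested, 52.2% were called, 25.4% higher and 26.8% lower. Of the 5 genes called higher, Cd3g, Cd3d and Cd247 entered the test only through pro-B(+), the group where they were bright. The median log2 change over the 10 genes was 0.27, against −0.01 over all genes tested.

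The second comparison asked what changed when a vector carrying Lmo2 was added to the line without potential, which already had an Lmo2 signal. Cd3g, Cd3d, Cd247, Zap70 and Lck were higher and Cd5, Thy1 and Lat lower in pro-B(−)/LMO2 than in pro-B(−)/Mock cells. Again 8 of 10 genes were called, where 68.2% of 12924 named genes were called, 30.7% higher and 37.4% lower. Of the genes called higher, Cd3g entered the test only through pro-B(−)/LMO2, the group where it was bright. The median log2 change was 0.30 for the 10 genes and −0.03 for all genes tested. Cd3e and Ptcra passed the threshold in neither comparison. The plot of signals by array shows each gene in all 4 groups.

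**Figure D1:**
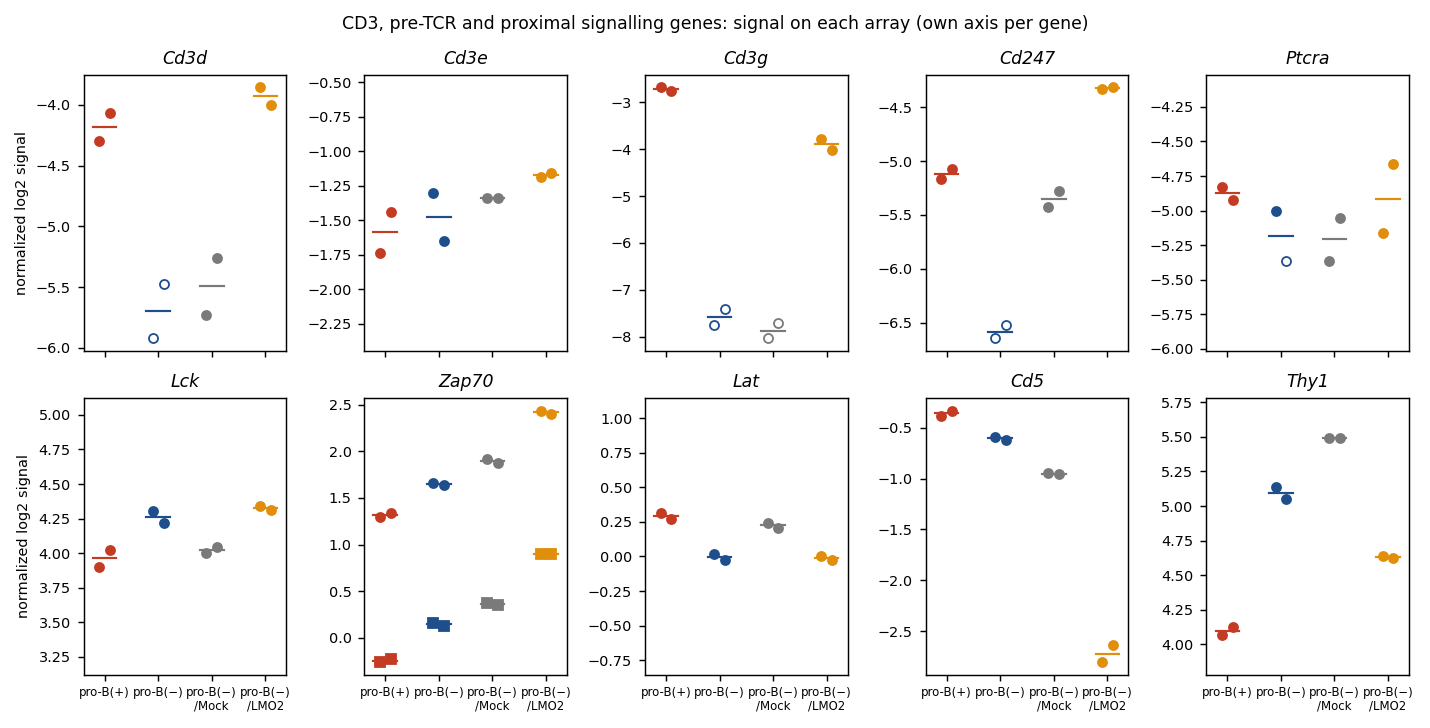
Normalized log2 signal (y axis, with its own range for each gene) on each of the 8 arrays, by group on the x axis. Bars are means of 2 arrays, open symbols mark arrays on which the probe was not well above background, and squares in the Zap70 panel are its second probe. Cd3g stood well above background on the pro-B(+) and pro-B(−)/LMO2 arrays and on no other, whereas Cd5 was lowest in pro-B(−)/LMO2 and Thy1 lowest in pro-B(+) cells.

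The CD3 genes lie side by side on chromosome 9. In the RefSeq annotation of GRCm38.p6 the start of Cd3g, on the minus strand, and that of Cd3d, on the plus strand, are 1355 bases apart and point away from each other, and Cd3e starts 27825 bases from Cd3d on the minus strand. Since the neighbouring genes differed in these arrays, their promoter windows are shown 5′ to 3′ along each gene, from 250 bases before to 50 after the start. Capitals mark matches on either strand to the E-box CANNTG, the core to which E proteins and the bHLH partners of LMO2 bind, to CTTTGA, the core of TCF1 and LEF1 sites, to GATAA and to the RUNX core TGTGGT. No match overlapped another motif's match in these windows.
Cd3g, chr9:44980382-44980681, minus strand: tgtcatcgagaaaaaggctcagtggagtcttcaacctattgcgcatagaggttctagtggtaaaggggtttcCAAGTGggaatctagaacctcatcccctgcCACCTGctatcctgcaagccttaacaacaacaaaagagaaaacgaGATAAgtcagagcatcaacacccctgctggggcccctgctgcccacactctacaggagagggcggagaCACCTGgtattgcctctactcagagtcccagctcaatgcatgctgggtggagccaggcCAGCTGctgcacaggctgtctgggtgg
Cd3d, chr9:44981536-44981835, plus strand: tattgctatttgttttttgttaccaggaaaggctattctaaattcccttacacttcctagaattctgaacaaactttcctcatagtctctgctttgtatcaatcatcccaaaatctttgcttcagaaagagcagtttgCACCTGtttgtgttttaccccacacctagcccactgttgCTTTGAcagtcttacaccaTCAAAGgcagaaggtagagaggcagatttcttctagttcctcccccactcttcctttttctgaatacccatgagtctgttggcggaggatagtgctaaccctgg
Cd3e, chr9:45009562-45009861, minus strand: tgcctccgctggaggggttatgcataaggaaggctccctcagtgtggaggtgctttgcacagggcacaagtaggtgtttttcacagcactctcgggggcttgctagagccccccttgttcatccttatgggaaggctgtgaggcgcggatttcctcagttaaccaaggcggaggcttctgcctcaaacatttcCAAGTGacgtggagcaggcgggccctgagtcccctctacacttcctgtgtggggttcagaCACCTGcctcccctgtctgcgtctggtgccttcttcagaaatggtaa

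The Cd3g window held 4 E-box matches and 1 GATAA match, that of Cd3d 1 E-box match and 2 CTTTGA matches, and that of Cd3e 2 E-box matches and none of the others. Windows were found for 9 of the 10 genes, 12 windows in all, and each of the 12 held an E-box match. Matches of this kind are frequent: among 32851 promoter windows of the same length, 72.3% held the E-box, 16% CTTTGA, 25.4% GATAA and 16.8% TGTGGT. The windows of Cd247 and of 1 of the 3 Zap70 starts also held CTTTGA, and TGTGGT was found in 1 window each of Lck, Zap70 and Lat.

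Cd3g, which encodes the γ chain of CD3, had the largest fitted change of the 10 genes in both comparisons, though with normexp, another background correction, its change between the vectors (log2 0.74) was smaller than those of Cd5 (−1.29) and Thy1 (−0.88). Its signal (probe A_55_P2072771) was −2.68 and −2.77 on the pro-B(+) arrays and −7.75 and −7.41 on the pro-B(−) arrays. With the empty vector it was −8.04 and −7.70, and with Lmo2 −3.79 and −4.01. The pro-B(+) and pro-B(−)/LMO2 arrays were high and the other arrays low, without overlap, and none of the low arrays was well above background. Cd3g was thus at least 8.47-fold higher in the pro-B(+) than the pro-B(−) line (fitted log2 difference 4.86, SE 0.16, limma adjusted p = 9.37e-06). It was at least 4.59-fold higher with Lmo2 than with empty vector (fitted log2 difference 3.97, SE 0.16, adjusted p = 2.00e-05). These bounds set the bright group's mean against the lowest signal that counted as well above background on each dim array, or the probe's own where that was higher.

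Cd3d, which encodes the δ chain, was higher in the same groups. Its arrays (probe A_51_P285206) read −4.29 and −4.07 in pro-B(+), −5.92 and −5.47 in pro-B(−), −5.73 and −5.26 in pro-B(−)/Mock and −3.85 and −4.003 in pro-B(−)/LMO2 cells. The pro-B(+) and pro-B(−)/LMO2 arrays were again above all others, and the pro-B(−) and pro-B(−)/Mock arrays overlapped. By the fit Cd3d was 2.86-fold higher in the pro-B(+) than the pro-B(−) line, where neither array was well above background (log2 1.52, SE 0.21, adjusted p = 0.00262). Its pro-B(−) signals exceeded the lowest that counted as well above background on those arrays (−5.96 and −5.65), so this fold is not a lower bound. With Lmo2 it was 2.96-fold higher than with empty vector (log2 1.56, SE 0.21, adjusted p = 0.00148).

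Cd3e, which encodes the ε chain and is needed for the whole complex to assemble, was well above background on all 8 arrays. It read −1.74 and −1.44 in pro-B(+), −1.30 and −1.65 in pro-B(−), −1.34 and −1.34 in pro-B(−)/Mock and −1.19 and −1.16 in pro-B(−)/LMO2 cells (probe A_55_P2156229). The pro-B(+) and pro-B(−) arrays overlapped, and the pro-B(−)/LMO2 arrays lay slightly above the pro-B(−)/Mock arrays. The log2 difference was −0.11 between the parental lines (95% interval −0.46 to 0.24, adjusted p = 0.541) and 0.17 between the vectors (−0.19 to 0.52, adjusted p = 0.346). When arrays were scaled to their medians instead, Cd3e was called lower in pro-B(+) cells (log2 −0.40, adjusted p = 0.0329). In a fit to the 4 arrays of the vectors alone its 0.17 was called (adjusted p = 0.0215).

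The genes on either side of the cluster were read for comparison. Of the 3 neighbours beyond Cd3g in the gene table, Kmt2a had no named probe, Atp5l was lower by log2 −0.22 in pro-B(+) cells and −0.28 with Lmo2, and Ube4a was called higher with Lmo2 (0.28) and not called between the parental lines (−0.011). Beyond Cd3e, Mpzl2 was not well above background on any array and Mpzl3 was not called (log2 0.40, adjusted p = 0.386, and −0.56, adjusted p = 0.212). Jaml, which encodes a junctional adhesion molecule of leukocytes, was higher by at least 64.3-fold in pro-B(+) cells (fitted log2 difference 7.31) and by at least 102-fold with Lmo2 (fitted 8.09), and was well above background on 4 of 8 arrays. The fitted increases of Cd3g and Jaml, in both comparisons, thus stood at either end of a stretch that holds Cd3d, Cd3e, Mpzl2 and Mpzl3.

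**Figure D2:**
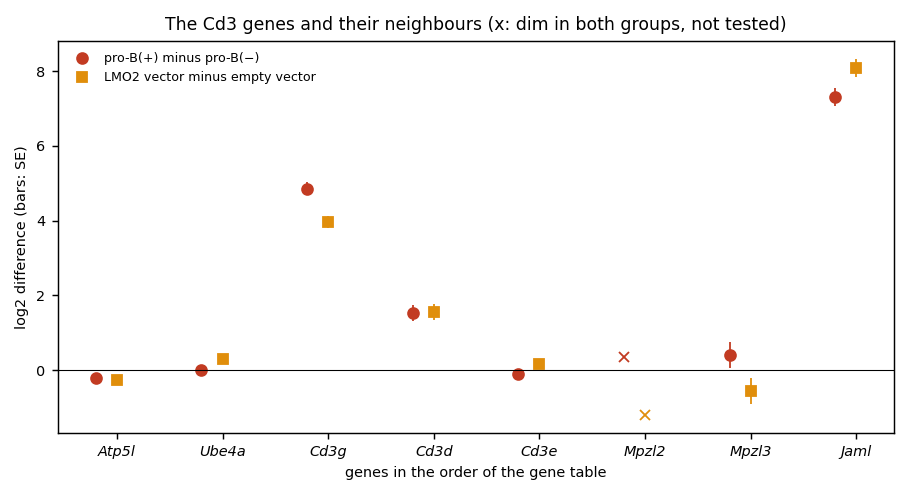
Log2 differences (y axis, bars are the SE) of the Cd3 genes and their named neighbours, in the order of the gene table and not to scale (x axis). Cd3g, Cd3d and Jaml were higher in the pro-B(+) than the pro-B(−) line (circles) and with Lmo2 than with the empty vector (squares), the differences of Cd3e, Ube4a and Atp5l ran from −0.28 to 0.28, and crosses mark Mpzl2, which was not tested.

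Cd247, which encodes the ζ chain, was dim, and its groups lay apart from each other. Its arrays (probe A_52_P173555) read −5.17 and −5.07 in pro-B(+), −6.65 and −6.52 in pro-B(−), −5.42 and −5.28 in pro-B(−)/Mock and −4.33 and −4.31 in pro-B(−)/LMO2 cells. No groups overlapped: pro-B(−)/LMO2 was highest and pro-B(−) lowest, with neither pro-B(−) array well above background. Cd247 was at least 1.61-fold higher in the pro-B(+) than the pro-B(−) line (fitted log2 1.47, SE 0.071, adjusted p = 3.64e-05) and 2.04-fold higher with Lmo2 than with empty vector (log2 1.03, SE 0.071, adjusted p = 1.09e-04).

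The sizes for these dim probes depend on the background correction. Between the parental lines, the differences with normexp fell below the bounds of Cd3g and Cd247 and the fitted fold of Cd3d. These folds thus hold for the processed intensities only. With normexp, which adds an offset of 50 to signals of the size of Cd3d (39.7 to 51.4 in the bright groups) and Cd247 (25.6 to 32.0), the differences between the parental lines became log2 1.29 for Cd3g, 0.35 for Cd3d and 0.15 for Cd247, and that of Cd247 was no longer called (adjusted p = 0.0878). Those between the vectors became 0.74, 0.56 and 0.35, all still called.

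Ptcra, which encodes the pre-TCRα chain, was dim in every group. It read −4.83 and −4.92 in pro-B(+), −5.00 and −5.37 in pro-B(−), −5.36 and −5.05 in pro-B(−)/Mock and −5.16 and −4.66 in pro-B(−)/LMO2 cells (probe A_55_P2122884), and 1 of the pro-B(−) arrays was not well above background. The pro-B(+) arrays were above the pro-B(−) arrays, while the vector arrays overlapped. The log2 difference was 0.31 between the parental lines (95% interval −0.22 to 0.84, adjusted p = 0.280) and 0.29 between the vectors (−0.24 to 0.82, adjusted p = 0.277). With normexp the latter was 0.20 and was called (adjusted p = 0.0117).

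Among the kinases, Lck and Zap70 were bright on all 8 arrays, and each differed in opposite directions in the 2 comparisons. Lck, the Src family kinase that acts first, read 3.90 and 4.02 in pro-B(+), 4.31 and 4.21 in pro-B(−), 4.002 and 4.05 in pro-B(−)/Mock and 4.34 and 4.31 in pro-B(−)/LMO2 cells (probe A_55_P2155504). The pro-B(+) and pro-B(−)/Mock arrays were low and overlapped, and the others were higher. Lck was 1.23-fold lower in the pro-B(+) than the pro-B(−) line (log2 −0.30, SE 0.057, adjusted p = 0.00793) and 1.23-fold higher after Lmo2 transduction (log2 0.30, SE 0.057, adjusted p = 0.00528). With each array's median as the scale the rise with Lmo2 was 0.09 and was lost (adjusted p = 0.144).

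Zap70, the kinase that binds phosphorylated CD3 and ζ chains, gave the same picture with both probes. The brighter probe (A_55_P1969861) read 1.30 and 1.34 in pro-B(+), 1.66 and 1.64 in pro-B(−), 1.91 and 1.87 in pro-B(−)/Mock and 2.44 and 2.40 in pro-B(−)/LMO2 cells. The groups did not overlap and ran in this order from low to high. Zap70 was 1.26-fold lower in the pro-B(+) than the pro-B(−) line (log2 −0.33, SE 0.037, adjusted p = 9.94e-04) and 1.44-fold higher after Lmo2 transduction (log2 0.52, SE 0.037, adjusted p = 1.13e-04). The dimmer probe (A_55_P2153122) gave log2 −0.39 and 0.53.

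Lat, the adaptor that ZAP70 phosphorylates, changed the other way round. It read 0.31 and 0.27 in pro-B(+), 0.02 and −0.02 in pro-B(−), 0.24 and 0.21 in pro-B(−)/Mock and 0.00 and −0.02 in pro-B(−)/LMO2 cells (probe A_51_P495242). The pro-B(−) and pro-B(−)/LMO2 arrays overlapped and lay below the other 4. Lat was 1.23-fold higher in the pro-B(+) than the pro-B(−) line (log2 0.29, SE 0.037, adjusted p = 0.00174) and 1.18-fold lower with Lmo2 (log2 −0.23, SE 0.037, adjusted p = 0.00272). The higher level in pro-B(+) cells was lost with median scaling (log2 0.01, adjusted p = 0.873).

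Cd5, the scavenger receptor family protein that restrains receptor signalling, had the largest fall. Its arrays (probe A_51_P167263) read −0.39 and −0.33 in pro-B(+), −0.59 and −0.62 in pro-B(−), −0.95 and −0.96 in pro-B(−)/Mock and −2.80 and −2.64 in pro-B(−)/LMO2 cells. The groups did not overlap, and the pro-B(−)/LMO2 arrays stood far below the rest. Cd5 was 3.40-fold lower with Lmo2 than with empty vector (log2 −1.77, SE 0.061, adjusted p = 1.09e-05). Its higher level in pro-B(+) cells, 1.19-fold (log2 0.25, SE 0.061, adjusted p = 0.0213), was not stable: it was log2 −0.039 with median scaling, and it was no longer called when any of the 4 arrays of the parental lines was left out (adjusted p from 0.0543 to 0.105) or when dim probes were kept (adjusted p = 0.0621).

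Thy1, the glycoprotein that gives T cells their Thy1 surface mark, was lower in both comparisons. It read 4.07 and 4.13 in pro-B(+), 5.13 and 5.05 in pro-B(−), 5.49 and 5.49 in pro-B(−)/Mock and 4.64 and 4.63 in pro-B(−)/LMO2 cells (probe A_55_P2072035). No groups overlapped, with pro-B(−)/Mock highest and pro-B(+) lowest. Thy1 was 1.99-fold lower in the pro-B(+) than the pro-B(−) line (log2 −0.995, SE 0.043, adjusted p = 2.30e-05) and 1.81-fold lower with Lmo2 than with empty vector (log2 −0.86, SE 0.043, adjusted p = 3.66e-05). Of its neighbours in the gene table, Nectin1 was higher in both comparisons (at least 1.38-fold in pro-B(+) cells and log2 1.24 with Lmo2), Usp2 was lower in both (−0.47 and −0.27), and Oaf was lower with Lmo2 (−0.95) and not called between the parental lines (0.12). Trim29 and C1qtnf5 were not well above background on any array, and Mfrp had no named probe.

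**Figure D3:**
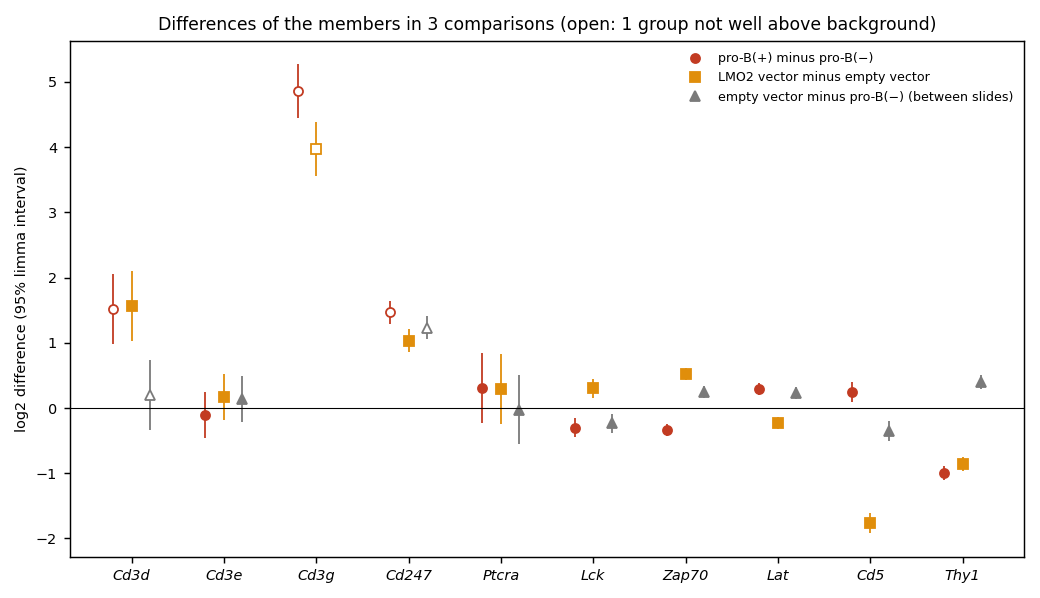
Log2 differences of the 10 genes (x axis) with their 95% limma intervals (y axis) in 3 comparisons: pro-B(+) minus pro-B(−), Lmo2 minus empty vector, and empty vector minus pro-B(−), the last between slides. Open symbols mark genes not well above background on either array of 1 of the groups, whose size is a fitted value only. Cd3g, Cd3d and Cd247 were above 0 and Thy1 below 0 in the first and the second comparison, and Lck, Zap70, Lat and Cd5 had opposite signs in them (for Cd5 not with median scaling, where both were below 0).

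Whether the first difference exceeded the second was tested in the same fit. By this test 6 of 10 genes were called, where 58.8% of 13732 named genes were called (33.4% higher and 25.3% lower). The difference between the parental lines was the more positive for Cd5 (by log2 2.01, SE 0.086, adjusted p = 3.90e-05) and Lat (0.53, adjusted p = 6.57e-04). It was the more negative for Zap70 (−0.86, adjusted p = 1.18e-04) and Lck (−0.60, adjusted p = 0.00184). Cd3g (fitted 0.89, SE 0.23, adjusted p = 0.0224) and Cd247 (fitted 0.44, adjusted p = 0.0142) were called too, but their values in pro-B(−), and for Cd3g also with the empty vector, were not well above background, so the folds compared are bounds and their order is not established. Intervals for the genes not called were −0.80 to 0.71 for Cd3d, −0.78 to 0.22 for Cd3e, −0.74 to 0.77 for Ptcra and −0.29 to 0.01 for Thy1. The call of Cd3g was lost when any of 5 arrays was left out (both pro-B(+) arrays, pro-B(−) replicate 1, and replicate 2 of each transductant, with adjusted p from 0.0559 to 0.0687). The fitted value of Cd247 became log2 −0.20 with normexp, and Thy1 was called with median or quantile scaling (adjusted p = 0.0278 and 0.00735).

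The empty vector was compared with the untransduced line as a control. These groups lay on different slides, so that vector, culture and slide cannot be told apart. Of 9 genes tested, 6 were called, where 59.5% of 12897 named genes were called (30.3% higher and 29.3% lower): Cd247 (log2 1.23), Thy1 (0.40), Zap70 (0.24) and Lat (0.23) were higher and Cd5 (−0.35) and Lck (−0.24) lower in pro-B(−)/Mock cells. For Cd247 this was at least 1.37-fold, so part of its distance between pro-B(−) and pro-B(−)/LMO2 cells was already present with the empty vector. The call of Lck was lost without replicate 1 of pro-B(−) or of pro-B(−)/Mock (adjusted p = 0.0712 and 0.0759). Cd3g was not tested, since neither group was well above background.

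Set beside the pro-B(+) arrays, which were also on the other slide and were not tested against them, the pro-B(−)/LMO2 arrays had a lower mean signal for Cd3g (by log2 −1.18), Cd5 (−2.36) and Lat (−0.30). They had a higher signal for Zap70 (by 1.097), Cd247 (0.80), Thy1 (0.54), Cd3e (0.42), Lck (0.36) and Cd3d (0.25). The arrays of these groups overlapped for Ptcra alone.

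The remaining genes of T-cell receptor signalling were counted from a list of 30 coreceptors, kinases, adaptors, effectors and inhibitors, none of them among the 10 genes. Between the parental lines 25 were tested, with 10 higher in pro-B(+) cells, 7 lower and 8 not called. Of all named genes tested, 52.2% were called, 25.4% higher and 26.8% lower. The median log2 change of the list was 0.08, against −0.01 over all genes tested. Rasgrp1, an activator of Ras, was higher by at least 5.53-fold (adjusted p = 4.03e-05) and was well above background on the pro-B(+) arrays and on no other. Lcp2, which encodes the LAT partner SLP-76, was at least 3.00-fold higher. Rasgrp1 and Lcp2 entered this test only through pro-B(+), the group where they were bright. Cd2, an adhesion receptor of T and NK cells, was higher by log2 1.84 (adjusted p = 1.55e-06). Txk, a Tec family kinase, was lower by log2 −1.68 (SE 0.051, adjusted p = 6.19e-06).

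With Lmo2, 24 of the list were tested against the empty vector, and 16 were higher, 3 lower and 5 not called. Of all named genes tested, 68.2% were called, 30.7% higher and 37.4% lower. The median log2 change of the list was 0.48, against −0.03 over all genes tested. Of the genes called higher, Lcp2 and Pag1 entered the test only through pro-B(−)/LMO2, the group where they were bright. Lcp2 was at least 6.84-fold higher (adjusted p = 2.28e-05). Lax1, an inhibitory membrane adaptor, rose by log2 2.76 (SE 0.054, adjusted p = 1.96e-06) from a mean signal of −4.49 to −1.73. Ptpn22, a phosphatase that acts on LCK and ZAP70, rose by log2 1.85 (SE 0.039, adjusted p = 2.38e-06) from −1.34 to 0.51. Plcg1, the phospholipase recruited by LAT, fell by 1.55 on the log2 scale (SE 0.060, adjusted p = 1.59e-05). The other genes that fell, named after their values were seen, were the adaptors Nck1 (log2 −0.37) and Sla2 (−0.13). The 5 not called were Cd4, Cd6, Ptprc, Sit1 and Ubash3a. Cd8a was well above background on 1 array and Cd8b1 on none, so the CD8 coreceptor was not tested.

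Cd2 had mean signals of 1.46 in pro-B(+), −0.38 in pro-B(−), 0.85 in pro-B(−)/Mock and 1.59 in pro-B(−)/LMO2 cells. The lentiviral vector also carried rat CD2 as a marker, and whether its transcript reached the mouse Cd2 probe was not tested.

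**Figure D4:**
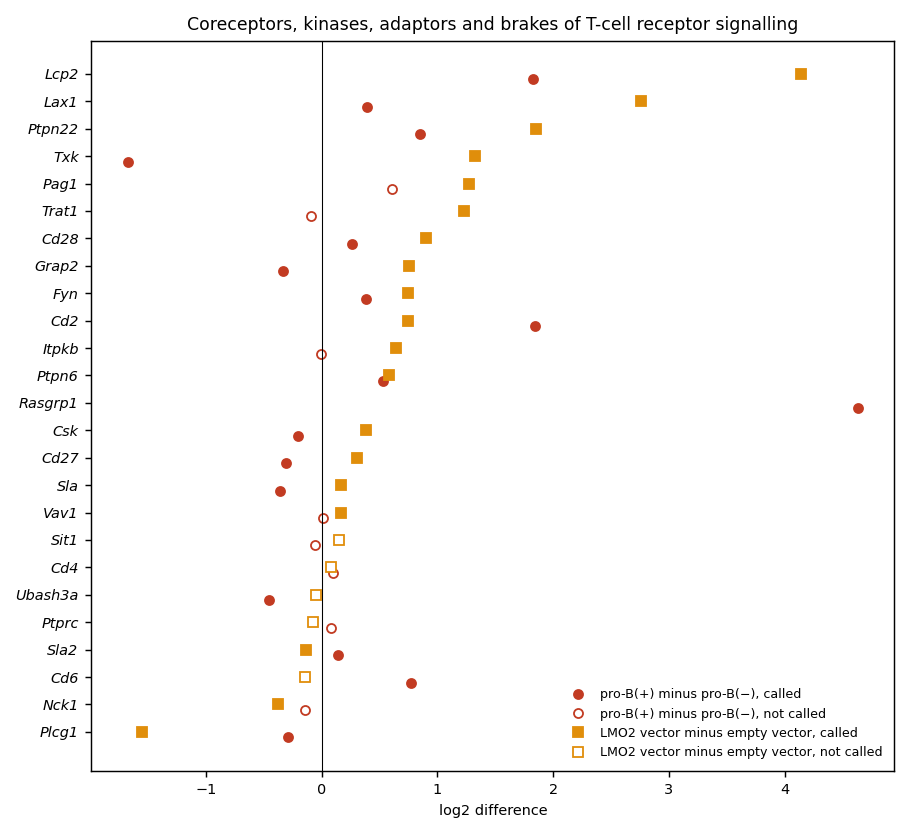
Log2 differences (x axis) of 25 further genes of T-cell receptor signalling (y axis, sorted by the difference between the vectors), for pro-B(+) minus pro-B(−) (circles) and Lmo2 minus empty vector (squares), filled where called. Rasgrp1 has a circle only, since it was not well above background with either vector. Lcp2, Lax1 and Ptpn22 lay to the right of 0 in both comparisons and were the highest with Lmo2, and Plcg1 lay to the left of 0 in both.

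Markers of other cell types were read beside Cd3g, Cd3d and Cd247. Of 17 genes of NK and cytotoxic cells, 13 were tested in each comparison, and 11 were higher and 2 lower in the pro-B(+) line, 12 higher and 1 lower with Lmo2, where 52.2% and 68.2% of all named genes were called. Some of these entered the test only through the group where they were bright: Klrb1c, Gzmb, Eomes and Xcl1 in pro-B(+) cells and Gzmb, Tbx21 and Xcl1 with Lmo2. The summed linear level of the 17 genes relative to the 75th percentile was 6.70 to 6.85 on the pro-B(−) arrays, 19.1 to 19.3 on pro-B(+), 8.73 to 8.81 on pro-B(−)/Mock and 129 to 134 on pro-B(−)/LMO2. Such a sum adds probes of unlike brightness, and with Lmo2 most of it was Ccl5, at a mean log2 signal of 6.34. It was higher on the pro-B(−)/LMO2 than on the pro-B(+) arrays, which lay on the other slide and were not tested against them. Cd3d and Cd247 were also higher there (by log2 0.25 and 0.80), and Cd3g was lower (−1.18). The largest changes with Lmo2 were those of Ccl5 (log2 9.09), Xcl1 (at least 142-fold), Cd7 (5.81) and Klrd1 (5.17), while of the NK receptors Ncr1 and Klrk1 were not well above background on any array and Klrb1c (NK1.1) was higher in both comparisons, by at least 3.49-fold and by log2 1.61. The part of NK-like transcripts in the levels of Cd3g, Cd3d and Cd247 was not tested.

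Among 13 genes for signalling adaptors and kinases of other blood cells, 7 of 12 tested were higher and 2 lower in the pro-B(+) line. With Lmo2, 8 of 11 were higher and 2 lower. Over all named genes, 52.2% were called between the parental lines and 68.2% between the vectors. Cd79b, the β chain that pairs with CD79A in the B-cell receptor, was at least 34.9-fold higher in the pro-B(+) line, and Blnk, the adaptor of that receptor, was higher by log2 4.85. Cd79b entered that test only through pro-B(+), the group where it was bright. Among 21 genes of T-lineage entry, 6 of 19 tested were higher and 10 lower in the pro-B(+) line. With Lmo2, 11 of 20 were higher and 5 lower, beside the same shares over all named genes. Tcf7 was at least 7.54-fold higher in the pro-B(+) line and at least 238-fold higher with Lmo2. Il2ra, which encodes CD25, was at least 3.93-fold and 134-fold higher. Both genes entered each test only through the group where they were bright. Lef1 and Hes1, also called higher with Lmo2, entered the test between the vectors only through pro-B(−)/LMO2. The largest falls with Lmo2, named after their values were seen, were those of Bcl11b (log2 −3.09), Rag1 (−2.78) and Rag2 (−2.11). Each of these was also lower in pro-B(+) cells. Dntt, which adds bases at V(D)J joints, was lower by log2 −2.92 in pro-B(+) cells and higher by 4.02 with Lmo2, the same pair of directions as Zap70 and Lck.

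Thy1 and stromal markers were read side by side, because the cultures held stromal cells and fibroblasts can make Thy1. Of 20 stromal genes, 16 of 17 tested were higher and none lower in pro-B(+) cells, where 52.2% of named genes were called. With Lmo2, where 68.2% of named genes were called, 12 of 18 stromal genes were higher and 2 lower. Their summed level was 9.80 to 9.95 on the pro-B(−) arrays, 23.6 to 24.3 on pro-B(+), 26.3 to 27.2 on pro-B(−)/Mock and 37.4 to 38.4 on pro-B(−)/LMO2, and Dcn and Lum were not well above background on any array. Thy1 was lower in the groups where this sum was higher in both within-slide comparisons. In pro-B(−)/Mock against pro-B(−), across slides, both were higher. There 59.5% of named genes were called, 15 of 18 stromal genes tested were higher and none lower, and Thy1 was higher by log2 0.40. Fbn1 and Postn entered that test only through pro-B(−)/Mock, where they were bright. The part of stromal RNA in the level of Thy1 was not tested. Of 16 myeloid genes, 13 were higher and 1 lower in the pro-B(+) line, and 9 of 14 tested were higher and 2 lower with Lmo2. Lyz2, Cd14, S100a8 and S100a9 entered the first test only through pro-B(+), where they were bright. Between the vectors, Lyz2 entered only through pro-B(−)/LMO2 and Ctsg, which was lower with Lmo2, only through pro-B(−)/Mock. The summed level of the 16 myeloid genes was 129.8 to 131.3 on the pro-B(+) arrays, 82.3 to 91.1 on pro-B(−), 78.3 to 80.2 on pro-B(−)/Mock and 83.2 to 88.7 on pro-B(−)/LMO2. Of 10 B-lineage genes, 7 were tested between the parental lines, with 4 lower and none higher. Between the vectors 8 were tested, with 4 lower and 2 higher. Ebf1, whose probe does not check the deficiency, was among the lower genes in both. Cd79b and Blnk, higher in the pro-B(+) line, were counted with the adaptors and not in this list. Vpreb2 and Igll1 entered the first test only through pro-B(−), and Pou2af1 the second only through pro-B(−)/LMO2, where they were bright. For the myeloid and B-lineage counts too, the shares called over all named genes were 52.2% and 68.2%.

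For each of the 10 genes, the 3 genes with the most similar profile were looked up by Pearson's r over the 8 arrays among 13722 other genes. These values describe likeness only, since the 8 arrays are 4 groups of 2. For Cd3g they were H2-Ab1, an MHC class II chain (0.9974), Lsp1, a leukocyte actin-binding protein (0.9974), and Ssh3 (0.9972). For Cd3d they were Slc18b1 (0.9919), Togaram1 and Sardh, and for Cd247 Plin4 (0.9992), Nrg1 and Arl6ip5. Zap70 was followed most closely by Jak3, the kinase of the common cytokine receptor γ chain (0.9995), then by Wdr81 and Ankrd9. Lck was nearest to Afg1l (0.9784), Pex6 and Atp9b, and Lat to Enpp4 (0.9979), Pfkfb4 and Ptgs1. Cd5 lay closest to Cacybp (0.9985), the chaperonin subunit Cct3 and the glycolytic enzyme Tpi1, and Thy1 to Map4k5 (0.998), Gdpd1 and Ccm2. Likeness was lower for Cd3e, led by Vmn1r52 (0.9684), Scaf1 and Hsd17b13, and lowest for Ptcra, led by Ovch2 (0.8927), Uroc1 and Fbxo2, where arrays of a group differed by as much as group means did.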

How the data were processed

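Total RNA of 8 samples was labelled with Cy3 and hybridised to one-colour Agilent mouse arrays. The authors deposited scanner intensity values for every spot, per the file headers already background subtracted and detrended. A matrix on the log2 scale, scaled by the authors to the 75th percentile, was deposited as well and matched log2 processed intensity up to a constant for each array. Groups and replicate numbers came from the sample titles. For the samples titled empty vector, the series design text instead gives the pro-B line without potential, and the titles were followed. Titles of the transductants do not say which pro-B line was used, and the published study describes these vectors in pro-B(−) cells. The 10 genes and all gene lists were chosen with earlier results of these data known.

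Control spots and outlier-flagged spots were dropped, spots of a probe were averaged, and log2 of the processed intensity was centred on the 75th percentile of each array, which left 39378 probes. Probes were named through transcript accessions and a RefSeq table of GRCm38.p6 (26550 probes, 67.4%). The arrays were annotated on another build, so coordinates are given for promoter windows only. The brightest probe stood for a gene. One fit of all arrays with 4 group means (limma 3.58.1, R 4.3.3, 4 residual degrees of freedom) was made, with empirical Bayes moderation and Benjamini-Hochberg adjustment over all probes tested, that is, those for which 1 or more of the groups compared had both arrays well above background. Alternatives covered scaling, background, filters, spread and left-out arrays. The fit was checked on simulated data. With 2 arrays against 2 the smallest exact 2-sided permutation p is 0.333, and the number of arrays limits the precision.

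Beside the 10 genes, the text names up to 4 called genes of a list with the largest change in the comparison described. It also names 3 neighbours on each side of the Cd3 genes and of Thy1, and the 3 genes most alike in profile. Genes whose values stand beside a result, or that entered a test only through their bright group, are named too. Pairing of replicate numbers was checked by the correlation of replicate differences between groups, which lay between -0.0272 and 0.0515, so the numbers were not taken as pairs. Results for some listed genes are not reported here, and they were left out of the list counts.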

Additional observations from a re-analysis of the deposited data

How the results depend on the processing

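For the 10 genes, 719 values under an alternative were computed: 695 kept their side of the threshold, and 17 lost and 5 gained the call. The other 2 changed sign and were called in the main fit or the alternative. They were Cd5 between the parental lines, log2 −0.039 with median scaling, and Cd247 in the difference of effects, log2 −0.20 with normexp. Sign changes of values called in neither are among the 695. Between the parental lines Cd3e became log2 0.034 without pro-B(+) replicate 1, and Ptcra −0.0046 with quantile normalization. Only Zap70 had a second probe, so for the other genes taking the dimmest probe repeated the main fit. Where a probe had to be well above background on every array compared, 6 of the 10 genes were tested between the parental lines and 5 called, 2 higher and 3 lower. Leaving out each array in turn gave 7 to 8 called genes between the parental lines, 8 in every case between the vectors, and 5 to 6 both for the empty vector against pro-B(−) and for the difference of effects. With the replicate number as a block the counts were 8, 8, 6 and 6, as without it, and it ended no call of the 10 genes. Median scaling moved the median change of all probes tested from log2 −0.04 to −0.33 between the parental lines and from −0.04 to −0.25 between the vectors. Of 11402 probes called between the parental lines 4835 were higher, and with median scaling 2932 of 18512. Of 14725 called between the vectors 6438 were higher, and with median scaling 3999 of 16330. Normexp was run on the median spot signal, with local backgrounds over 100 set to the median of the array, a choice made after seeing the data. Signal over background limits Cd3g, Cd3d, Cd247 and Ptcra, and the cause of the changes was not tested.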
